A study of Mus musculus with 6 samples.

Results

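The renin-angiotensin system was followed through 8 genes in lungs of mice that carry a lysine-to-arginine substitution in the RNA-binding protein RBM47 and in lungs of their wild-type littermates. The genes were chosen by name for their known part in the system, with earlier results of these data known. They are Agt, Ace, Enpep, Agtr1a, Agtr2, Mas1, Agtrap and Atp6ap2, 8 of the 56262 genes in the count table, and 7 of them had enough reads to enter the test, which covered 17120 genes in all. Agtr2 was the member left out, for too few reads. None of the 7 was called different between the genotypes. The members with the smallest p-values were the (pro)renin receptor gene Atp6ap2, at 1.17 times its WT level in R/R lungs, and the angiotensin precursor gene Agt, at 0.577 of its WT level, and neither gene passed the correction over all genes.

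The 3 mutant mice, named R/R, carried both RBM47 K329R and K332R, and the other group was 3 wild-type (WT) mice. The comparison asks how the lung transcriptome differs when these lysines, described by the study as sites at which the ubiquitin-like protein ISG15 is attached to RBM47, cannot be modified. All 6 mice were 8 weeks old and untreated, and each library holds RNA of bulk lung tissue, with the 3 libraries of a group described as biological replicates. The substitution was put into the germline of C57BL/6 mice by CRISPR, so it is present in every cell type, and no cell type was sorted.

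The renin-angiotensin system makes peptide hormones in steps. Renin cuts angiotensinogen, the product of Agt, to angiotensin I, and angiotensin-converting enzyme, the product of Ace, removes the last residues of that peptide to give angiotensin II, which constricts vessels and promotes salt retention through its type 1 receptor. The lung is a classic site of this conversion because its capillary endothelium carries much ACE, while a counter-acting arm of the type 2 receptor and the receptor MAS opposes many type 1 receptor effects.

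The stretch of the Agt coding sequence that encodes angiotensin I is shown because the rest of the pathway acts on it. It lies in exon 2 of 5 of Agt on the minus strand of GRCm38, at chr8:124564450-124564479, and codes for residues 30 to 39 of the 482-residue precursor. Capitals mark the 8 codons that remain in angiotensin II, and the lower-case codons at the end are those whose residues ACE removes.
Agt angiotensin I codons: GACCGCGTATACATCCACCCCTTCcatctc

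Several enzymes that cut angiotensin peptides are zinc peptidases with the same short motif in the catalytic site, a histidine and a glutamate followed by any 2 residues and a second histidine. The codons for this motif are shown for the members that are such enzymes, ACE and aminopeptidase A, the product of Enpep. Capitals mark the codons of the fixed histidines and glutamate. A search of each whole protein for this motif found 2 matches in ACE, at residues 395 and 993 of 1312, and 1 match in ENPEP, at residue 385 of 945. The codons lie in exons 8 and 20 of the 25 exons of Ace (chr11:105972910-105972924 and chr11:105985094-105985108, plus strand) and in exon 5 of the 20 exons of Enpep (chr3:129309772-129309786, minus strand).
Ace first site: CACGAGatgggcCAC
Ace second site: CACGAAatgggcCAC
Enpep: CACGAActtgtaCAC

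Read pairs assigned to genes totalled 16815020 to 18071818 in the R/R lungs and 16501092 to 18141067 in the WT lungs. Pearson correlations of log2 CPM (read counts scaled to library size) were 0.986 to 0.990 within a genotype and 0.983 to 0.986 between genotypes. Gene counts cannot show the substitution itself, so the genotype labels were not checked on the reads, and the level of Rbm47 had a log2 fold change of 0.10 (SE 0.08, edgeR quasi-likelihood adjusted p = 0.660). Markers of lung tissue were abundant in every library, with the summed level of 12 lung epithelial genes between 29670 and 40270 CPM and that of 12 endothelial genes between 7407 and 8597 CPM. Across all tested genes, 300 were called at an adjusted p of 0.05 (1.75%), and 3197 had levels that did not overlap between genotypes (18.7%).

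The members spanned nearly the whole range of expression in the lung. Per kilobase of exon, Ace stood at 291.2 RPKM (CPM divided by exon length in kilobases) as a mean over the 6 lungs, rank 70 of the 17120 tested genes. Enpep followed at 42.6 RPKM, Atp6ap2 at 26.0, Agtrap at 20.8, Agtr1a at 7.99, Agt at 0.699 and Mas1 at 0.403 RPKM. Each member lay above the next in this order in 6 of 6 lungs, except that Agt lay above Mas1 in 5 of 6. Ace sat at the 99.6 percentile of tested genes, while Agt and Mas1 sat at the 14.1 and 7.63 percentiles.

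**Figure D1:**
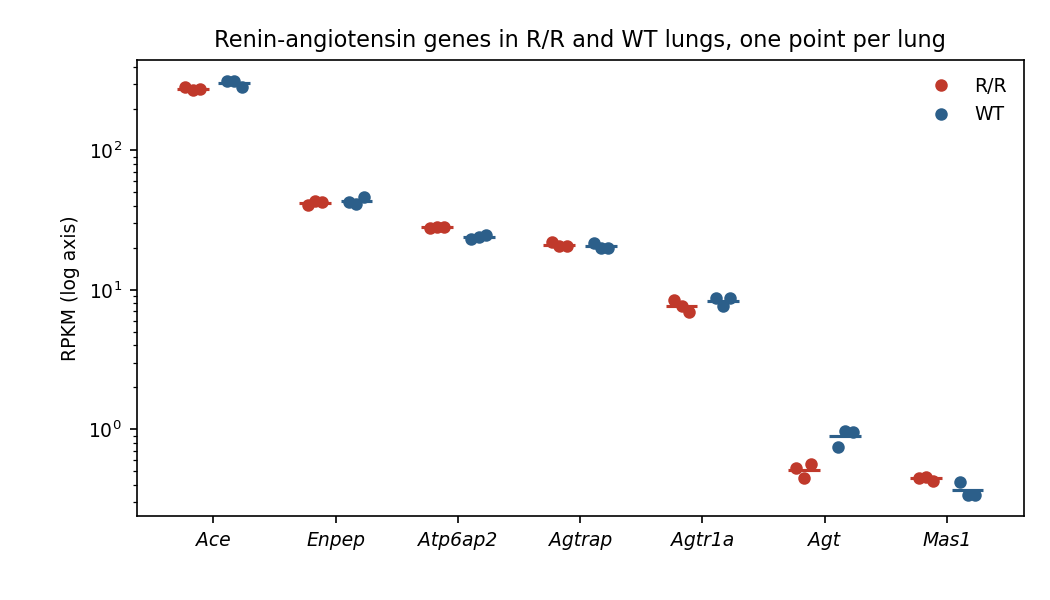
Level of the 7 tested members in each lung, in RPKM on a log axis, with R/R lungs in red, WT lungs in blue and a bar at each genotype's mean. Ace stands far above the others at a mean of 291.2 RPKM, Agt and Mas1 lie below 1 RPKM, and the genotypes separate for Agt, Mas1 and Atp6ap2.

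Agt (ENSMUSG00000031980.10, chr8:124556534-124569706 of GRCm38, minus strand) encodes angiotensinogen, the single precursor of all angiotensin peptides, which in the body comes mainly from the liver. The R/R lungs had 18, 14 and 18 read pairs on Agt, and the WT lungs had 23, 33 and 31. In CPM the levels were 0.999, 0.837 and 1.06 in R/R lungs and 1.40, 1.82 and 1.82 in WT lungs. All 3 R/R lungs lay below all 3 WT lungs, with the nearest pair being R/R-3 and WT-1. The mean was 0.965 ± 0.115 CPM (SD, n = 3) in R/R lungs and 1.68 ± 0.243 CPM (SD, n = 3) in WT lungs, a log2 fold change of -0.79 (95% interval -1.44 to -0.15). The edgeR quasi-likelihood test gave an adjusted p of 0.235, so Agt was not called. An exact two-sided permutation test over the 6 lungs gave p = 0.1, the smallest value that 3 against 3 allows.

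Agt rests on few reads. The 18 counts of R/R-1 carry a 95% Poisson interval of 10.7 to 28.4, and the 23 counts of WT-1 one of 14.6 to 34.5, and these intervals overlap. WT-1 had the lowest count of the WT lungs, and the intervals cover counting error of single lungs only. Summed over a genotype, Agt held 50 counts in R/R lungs and 87 in WT lungs. Liver markers were near the floor, with a sum over 8 genes of 0.944 to 2.77 CPM in R/R lungs and 2.13 to 3.20 CPM in WT lungs, and only 2 of the 8 could be tested, neither of them called. Both had log2 fold changes below 0, at -1.15 for Alb, the albumin gene, and -0.43 for Apob. Alb was read 8, 12 and 4 times in R/R lungs and 10, 26 and 18 times in WT lungs. Apob was read 5, 15 and 28 times in R/R lungs and 20, 23 and 22 times in WT lungs. The genotypes overlapped for both genes. In the fit without the filter on low counts, 3 of the 8 liver genes were above 0 and 5 below. Of 10 adipose tissue genes 3 were tested and 0 called. Their sum, 60.9 to 93.5 CPM in R/R lungs and 54.2 to 105.9 CPM in WT lungs, came mostly from Lipe and Cidec. R/R-3 and WT-3 stood apart in fat-specific genes, with Cfd at 8.48 and 8.67 CPM there and at 0.110 to 1.61 CPM in the other lungs, and with 10 and 17 counts on Adipoq against 0. The log2 fold change of Agt was -0.86 without R/R-3 and -0.74 without WT-3. The part of liver or fat RNA in the Agt counts was not tested. In bulk lung RNA, fewer cells of a type and less RNA per cell cannot be told apart, here and for every gene that follows.

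Renin itself was almost unread. Of Ren1, the renin gene, R/R lungs gave 0, 0 and 2 counts and WT lungs none, which is under the 3 counts taken as the floor (0.166 to 0.182 CPM per library), so no fold is given.

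Ace (ENSMUSG00000020681.14, chr11:105967945-105989964, plus strand) encodes the converting enzyme of the capillary endothelium. The R/R lungs stood at 1507, 1443 and 1450 CPM and the WT lungs at 1673, 1663 and 1501 CPM. The genotypes overlapped because WT-3 lay just below R/R-1, while WT-1 and WT-2 stood above every R/R lung. The mean was 1466 ± 34.8 CPM (SD, n = 3) in R/R lungs and 1613 ± 96.4 CPM (SD, n = 3) in WT lungs. The log2 fold change was -0.14 (95% interval -0.29 to 0.02, edgeR quasi-likelihood adjusted p = 0.417), at 24141 to 30127 counts a lung. Of the Ace exon bases, 295 (5.58%) are shared with the antisense gene Gm11651, and counting was without strand. That gene held 28 counts over the 6 lungs against 159222 on Ace. What Ace lost or gained in the shared bases cannot be read from these counts.

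Enpep (ENSMUSG00000028024.14, chr3:129269175-129332720, minus strand) encodes aminopeptidase A, which trims angiotensin II to angiotensin III. Its level was 190.9, 202.7 and 201.2 CPM in R/R lungs and 199.5, 193.0 and 216.8 CPM in WT lungs. The genotypes were intermixed, with the highest lung a WT lung and the lowest an R/R lung. The log2 fold change was -0.03 (95% interval -0.17 to 0.10, edgeR quasi-likelihood adjusted p = 0.864), and its sign turned when WT-3 was left out.

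The levels of the precursor and the converting enzyme were also set against each other within each lung, per kilobase, which does not depend on the scaling between libraries. The log2 ratio of Agt to Ace was -9.04, -9.22 and -8.89 in R/R lungs and -8.71, -8.33 and -8.19 in WT lungs. All R/R ratios lay below all WT ratios, with R/R-3 and WT-1 nearest to each other. The mean was -9.05 ± 0.162 (SD, n = 3) in R/R lungs and -8.41 ± 0.272 (SD, n = 3) in WT lungs, a difference of -0.64 with an exact two-sided permutation p of 0.1, the smallest possible. This ratio rests on the values already given for the single genes and adds no independent measurement.

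Agtr1a (ENSMUSG00000049115.15, chr13:30336441-30382867, plus strand) encodes the main type 1 receptor of rodents, through which angiotensin II acts on vascular smooth muscle and pericytes. Levels of 23.4, 21.2 and 19.2 CPM were read in R/R lungs and of 24.4, 21.3 and 24.2 CPM in WT lungs. The genotypes overlapped, since R/R-1 lay above WT-2. The log2 fold change was -0.13 (95% interval -0.34 to 0.08, edgeR quasi-likelihood adjusted p = 0.621). Agtr1b, the second type 1 receptor gene of rodents, was read 13, 11 and 13 times in R/R lungs and 6, 24 and 12 times in WT lungs. Its WT lungs held both the lowest and the highest value, and its log2 fold change of -0.17 (SE 0.45, edgeR quasi-likelihood adjusted p = 0.915) had no stable sign across methods.

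Agtr2 (ENSMUSG00000068122.10, chrX:21484544-21489164, plus strand) encodes the type 2 receptor, which is most abundant before birth. R/R lungs gave 1, 0 and 2 read pairs and WT lungs 1, 0 and 3. No lung exceeded the floor of 3 counts, so no difference could be detected at these totals. Summed over a genotype, Agtr1a held 1102 counts against 3 for Agtr2 in R/R lungs and 1200 against 4 in WT lungs. Per kilobase that is 438.5-fold in R/R lungs (95% counting interval 149.7 to 2130) and 358.1-fold in WT lungs (139.5 to 1317), and these intervals overlap. Within lungs the log2 ratio differed by 0.03 between genotypes (exact permutation p = 0.9), a value set by the handful of Agtr2 counts.

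Mas1 (ENSMUSG00000068037.11, chr17:12841079-12868143, minus strand) encodes MAS, a receptor for angiotensin-(1-7). Read pairs on Mas1 numbered 21, 20 and 19 in R/R lungs and 18, 16 and 15 in WT lungs. In CPM these were 1.17, 1.20 and 1.12 in R/R lungs against 1.09, 0.883 and 0.878 in WT lungs. Every R/R lung lay above every WT lung, with R/R-3 and WT-1 close together. The log2 fold change was 0.29 with a 95% interval of -0.38 to 0.95 (edgeR quasi-likelihood adjusted p = 0.744). Mrgprd, a further receptor of the counter-acting arm, had 0 counts in all 6 lungs.

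Agtrap (ENSMUSG00000029007.8, chr4:148077061-148088031, minus strand) encodes a membrane protein that binds the type 1 receptor and promotes its removal from the cell surface. It stood at 93.0, 87.8 and 87.8 CPM in R/R lungs and at 91.4, 84.0 and 85.2 CPM in WT lungs. The genotypes were intermixed. The log2 fold change was 0.04 (95% interval -0.09 to 0.17, edgeR quasi-likelihood adjusted p = 0.811).

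Atp6ap2 (ENSMUSG00000031007.2, chrX:12587801-12617049, plus strand) encodes the (pro)renin receptor, which is also an accessory subunit of the vacuolar proton pump that acidifies lysosomes. The R/R lungs stood at 72.7, 74.1 and 73.4 CPM and the WT lungs at 60.9, 62.8 and 65.3 CPM. All R/R lungs lay above all WT lungs, and the R/R lungs were close to each other, with a coefficient of variation of 0.97% against 3.47% in WT lungs. The mean was 73.4 ± 0.711 CPM (SD, n = 3) against 63.0 ± 2.19 CPM (SD, n = 3), a log2 fold change of 0.22 (95% interval 0.09 to 0.35) or 1.17-fold. Its edgeR quasi-likelihood adjusted p was 0.0901, rank 501 of the 17120 genes by p, so Atp6ap2 was not called.

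As a group, 0 of the 7 tested members were called, against 1.75% of all tested genes (0.648% higher and 1.1% lower in R/R lungs). At an unadjusted p under 0.05 there were 2, Atp6ap2 higher and Agt lower in R/R lungs, against 14.2% of all tested genes. Levels did not overlap between genotypes for 3 of the 7, against 18.7% of all tested genes. In R/R lungs 2 of these lay above the WT lungs (Mas1 and Atp6ap2, against 9.17%) and 1 below (Agt, against 9.5%). Log2 fold changes were above 0 for 3 members and below 0 for 4, with a median of -0.03 against 0.0045 over all tested genes.

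**Figure D2:**
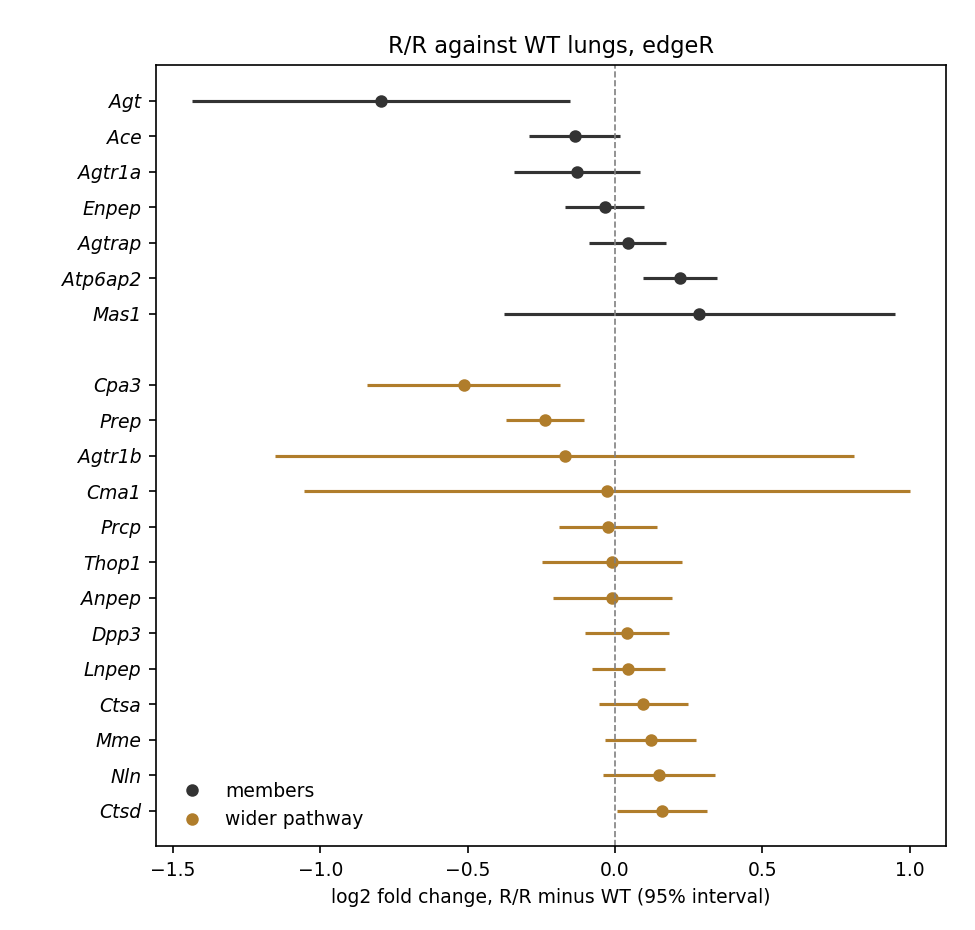
Log2 fold change of R/R against WT lungs with its 95% interval from the edgeR fit, for the 7 tested members (black) and the 13 tested genes of the wider pathway list (brown). The intervals of Agt, Atp6ap2, Cpa3, Prep and Ctsd lie to the side of 0, although no gene shown passed the correction over all genes.

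The wider pathway list held 18 further enzymes and receptors of angiotensin metabolism, of which 13 were tested (Ren1, Ctsg, Klk1, Mcpt4 and Mrgprd had too few reads). Of the 13, 0 were called, against 1.75% of all tested genes. At an unadjusted p under 0.05 there were 1 higher and 2 lower, against 14.2%. In 2 of the 13 every R/R lung lay below every WT lung, against 9.5%, and in 0 above, against 9.17%. The median log2 fold change of the list was -0.0091, with 6 genes above 0 and 7 below. Prep, a prolyl endopeptidase that can release angiotensin-(1-7), stood at 119.7, 118.5 and 119.2 CPM in R/R lungs and 141.3, 148.9 and 131.2 CPM in WT lungs. All R/R lungs lay below all WT lungs, and the log2 fold change was -0.24 (SE 0.06, edgeR quasi-likelihood adjusted p = 0.0793). Prep did pass the threshold with DESeq2 (adjusted p = 0.0394), with the edgeR exact test (0.0355) and without WT-3 (0.0246 by edgeR), and it missed it in the other settings except the unfiltered one.

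Besides Prep and Agtr1b, the genes of the list with the widest differences were the peptidases Cpa3, Ctsd and Nln. Cpa3, the carboxypeptidase of mast cells, stood at 5.27, 5.98 and 5.01 CPM in R/R lungs and 7.77, 8.22 and 7.20 CPM in WT lungs, without overlap. Its log2 fold change was -0.51 (SE 0.15, edgeR quasi-likelihood adjusted p = 0.129). Mcpt4, a mast cell chymase able to make angiotensin II, had too few reads for the test, with R/R libraries at 14, 8 and 12 read pairs and WT libraries at 0, 3 and 3, and is named because of these values. These mast cell products lay on opposite sides, with Cpa3 below and Mcpt4 above the WT lungs in each R/R lung. Cma1, another chymase, gave 6, 16 and 21 read pairs in R/R lungs against 11, 12 and 21 in WT lungs, with the genotypes intermixed. Of 6 mast cell markers 2 were tested and 0 called, and their sums overlapped, at 436.8 to 481.0 CPM in R/R lungs and 408.8 to 459.2 CPM in WT lungs, mostly from Kit, which other lung cells also express. Ctsd, a lysosomal aspartyl protease related to renin, stood at 366.7, 326.3 and 351.9 CPM in R/R lungs and 303.1, 295.1 and 337.1 CPM in WT lungs. R/R-2 lay below WT-3, and Ctsd had a log2 fold change of 0.16 (SE 0.07, edgeR quasi-likelihood adjusted p = 0.325). Nln, the peptidase neurolysin, stood at 31.4, 30.4 and 31.7 CPM in R/R lungs and at 24.96, 28.7 and 30.6 CPM in WT lungs. R/R-2 lay just below WT-3, and its log2 fold change was 0.15 (SE 0.09, edgeR quasi-likelihood adjusted p = 0.484).

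The kinin system is tied to the angiotensin pathway because ACE also breaks down bradykinin, a peptide that widens vessels. Of 10 kinin genes 7 were tested and 1 was called, against 1.75% of all tested genes, and in 4 of the 7 every R/R lung lay above every WT lung, against 9.17%. The called gene was Xpnpep2, a membrane aminopeptidase that inactivates bradykinin, which rose in R/R lungs. It stood at 12.7, 11 and 11.6 CPM in R/R lungs and 7.84, 7.89 and 7.61 CPM in WT lungs. The groups were well apart, with means of 11.8 ± 0.867 and 7.78 ± 0.149 CPM (SD, n = 3 each), a log2 fold change of 0.60 (95% interval 0.33 to 0.86) and an edgeR quasi-likelihood adjusted p of 0.0353. The call was lost when any R/R lung, WT-1 or WT-2 was left out (adjusted p 0.0825 to 0.131), with a log2 fold change still between 0.54 and 0.64.

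**Figure D3:**
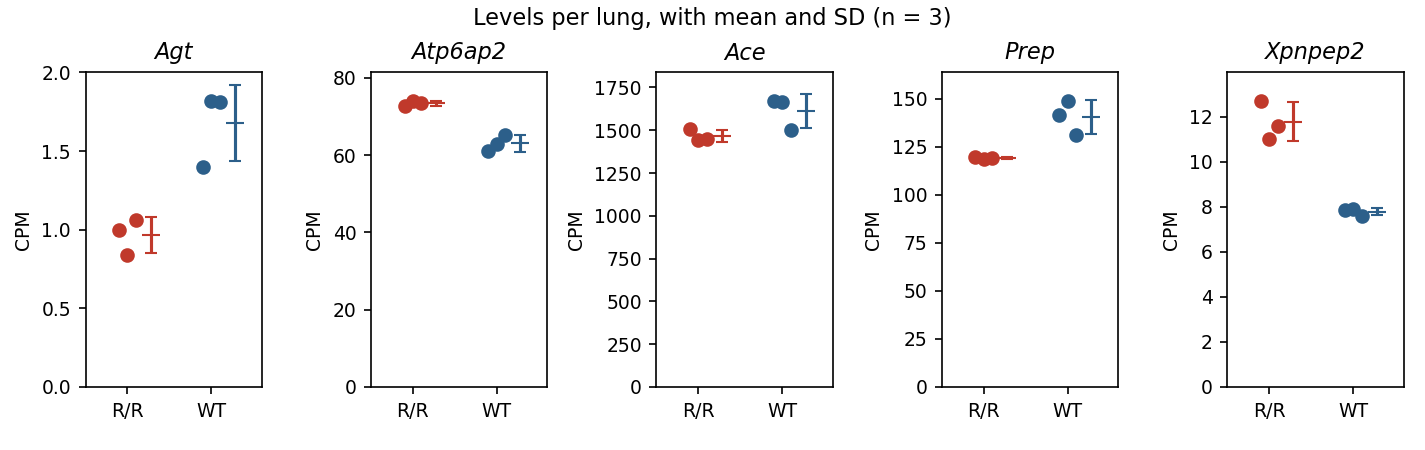
Levels in each lung of Agt, Atp6ap2, Ace, Prep and Xpnpep2 in CPM, each axis from 0, with the mean and SD of 3 lungs beside the points. R/R lungs lie below WT lungs for Agt and Prep, lie above them for Atp6ap2 and Xpnpep2, and overlap them for Ace, where WT-3 sits at 1501 CPM.

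The bradykinin receptors, named after their values were seen, lay above the WT lungs in every R/R lung without passing the correction. Bdkrb1, the inducible receptor, stood at 2.11, 2.81 and 2.71 CPM in R/R lungs and 0.790, 1.33 and 2.11 CPM in WT lungs. R/R-1 and WT-3 were level to the third digit, and the log2 fold change was 0.85 (SE 0.33, edgeR quasi-likelihood adjusted p = 0.265). Bdkrb2, the receptor present at rest, stood at 11.7, 11.3 and 13.0 CPM in R/R lungs and 8.44, 8.56 and 10.1 CPM in WT lungs. Every R/R lung lay above every WT lung, and the log2 fold change was 0.41 (SE 0.13, edgeR quasi-likelihood adjusted p = 0.150). Kng1, a gene for the bradykinin precursor, had 0 counts in all 6 lungs. Kng2, another gene for it and named after its values were seen, had too few reads for the test. It was read 3, 3 and 3 times in R/R lungs and 0, 1 and 5 times in WT lungs.

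Signalling genes of the angiotensin receptors, of type 1 or type 2, were counted over a list of 23, all tested and 0 called. Log2 fold changes were below 0 for 18 and above 0 for 5 (51.22% of all tested genes were above 0), with a median of -0.07. Every R/R lung lay below every WT lung for 5 of the 23, against 9.5%, and above for 1, against 9.17%. The gene with the widest difference was Zbtb16, a transcription factor that binds the type 2 receptor, with 53.4, 17.8 and 14.2 CPM in R/R lungs and 56.0, 15.6 and 67.2 CPM in WT lungs. Each genotype held both high and low lungs for Zbtb16, and its log2 fold change of -0.69 had an SE of 0.50 (edgeR quasi-likelihood adjusted p = 0.601). Rgs2, named after its values were seen, shortens signalling by the type 1 receptor's G protein. It stood at 96.9, 60.7 and 55.9 CPM in R/R lungs and 101.6, 94.7 and 110.5 CPM in WT lungs. R/R-1 lay with the WT lungs and the other R/R lungs far below them, and the log2 fold change was -0.52 (SE 0.16, edgeR quasi-likelihood adjusted p = 0.153). Without R/R-1 it was -0.81 with an adjusted p of 0.00185, without R/R-2 it was -0.42 (0.410) and without R/R-3 it was -0.37 (0.327). Nox4, an NADPH oxidase also named after its values were seen, stood at 102.2, 106.5 and 85.9 CPM in R/R lungs and 80.1, 84.3 and 79.2 CPM in WT lungs. All R/R lungs lay above all WT lungs, and the log2 fold change was 0.27 (SE 0.08, edgeR quasi-likelihood adjusted p = 0.120). It was called without R/R-3 (0.36, adjusted p = 0.0368). Plcb1, a phospholipase C downstream of the type 1 receptor, is named because it was called without WT-1 (-0.47, adjusted p = 0.0456). With all lungs it was not called (-0.34, SE 0.11, edgeR quasi-likelihood adjusted p = 0.177). It stood at 44.6, 53.5 and 50.1 CPM in R/R lungs and 50.5, 69.2 and 67.2 CPM in WT lungs, with the genotypes overlapping.

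Because Atp6ap2 also serves the proton pump, 14 other pump genes were set beside it. None was called. In 4 of the 14 every R/R lung lay above every WT lung, against 9.17% of all tested genes, and 2 had an unadjusted p under 0.05, against 14.2%. Their log2 fold changes ran from 0.06 to 0.18 with a median of 0.11, so all 14 were above 0, as against 51.22% of all tested genes. Atp6v1h, a regulatory subunit and the widest of them, stood at 52.0, 53.0 and 52.0 CPM in R/R lungs and 44.8, 46.7 and 47.0 CPM in WT lungs (log2 fold change 0.18, SE 0.06, edgeR quasi-likelihood adjusted p = 0.192). The value of Atp6ap2, 0.22, was above that of each of the 14.

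**Figure D4:**
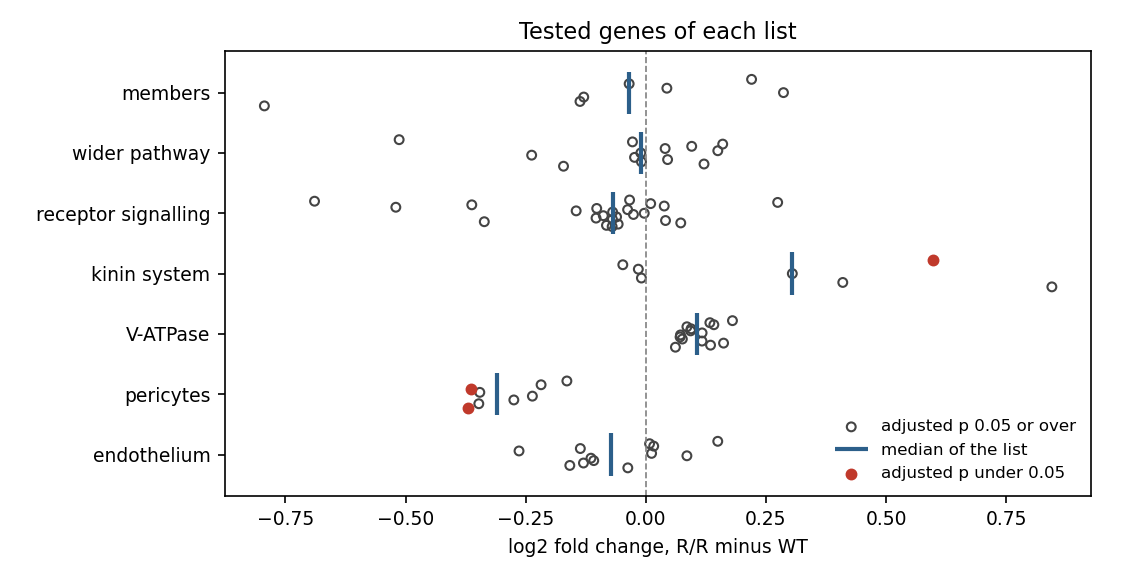
Log2 fold change of every tested gene of each list, with the list's median as a bar and genes that passed the correction filled in red. The 14 proton pump genes (V-ATPase) all lie between 0.06 and 0.18, the 8 pericyte markers all lie below 0, and Xpnpep2 is the filled kinin gene.

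Marker genes of the cell types that express the members differed between genotypes in some cases. All 8 pericyte markers had log2 fold changes below 0 (median -0.31), while 51.22% of all tested genes were above 0. Of the 8, 2 were called lower, against 1.1% of all tested genes. They were Pdgfrb (-0.37, edgeR quasi-likelihood adjusted p = 0.0269) and Gucy1a1 (-0.36, adjusted p = 0.0462). Their summed level was 1278 to 1374 CPM in R/R lungs and 1521 to 1732 CPM in WT lungs, without overlap. Both calls were lost when any R/R lung, WT-1 or WT-2 was left out, with list medians of -0.32 to -0.27, and 5 of the 8 were called without WT-3. Of 12 endothelial markers 0 were called, with a median of -0.07 and overlapping sums of 7427 to 7674 and 7407 to 8597 CPM. Of 7 smooth muscle markers 0 were called (median -0.20), with sums of 464.6 to 559.9 CPM in R/R lungs and 496.4 to 696.3 CPM in WT lungs. That median was -0.10 without R/R-1 and -0.0002 without WT-3. The part of these cells in the values of Ace and Agtr1a was not tested.

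The remaining marker lists lay in both directions. Their called genes stand beside 1.75% of all tested genes called, 0.648% higher and 1.1% lower in R/R lungs. Of 12 lung epithelial markers 0 were called (median 0.18), with sums of 37170 to 40270 CPM in R/R lungs and 29670 to 37680 CPM in WT lungs, overlapping. Of 12 fibroblast markers 0 were called (median -0.05), with sums of 5707 to 6606 CPM against 6717 to 7156 CPM, without overlap. These sums came mostly from Inmt, Npnt and the collagen genes. Of the 12, 5 had log2 fold changes above 0 and 7 below. Only 1, Npnt, lay below the WT lungs in every R/R lung, against 9.5% of all tested genes. With a lung left out, the epithelial median ran from 0.09 (without WT-1) to 0.29 (without WT-3) and the fibroblast median from -0.13 (without WT-2) to 0.0053 (without WT-3). Of 5 mesothelial markers 1 rose, Lrrn4 (log2 fold change 1.01, edgeR quasi-likelihood adjusted p = 0.0124), and the sums were 239.3 to 308.7 CPM against 165.3 to 235.1 CPM, again without overlap. Without R/R-2 or without WT-1 no mesothelial marker was called, and 4 were called without WT-3. Of 7 cardiac muscle genes 6 were tested and 0 called (median -1.20), with sums of 61.7 to 119.6 CPM against 84.5 to 259.4 CPM. The cardiac median was -0.46 without WT-2, and without WT-3 it was -1.66 with 5 genes called. Of 7 B and T cell markers 3 fell (median -0.67), with sums of 59.1 to 78.1 CPM against 108.5 to 131.7 CPM, and of 5 red cell genes 1 fell (median -0.67), with sums of 1175 to 2218 CPM against 2424 to 3217 CPM. The red cell call was lost without R/R-1, R/R-2, WT-1 or WT-2, and 2 to 3 B and T cell markers were called whichever lung was left out. With all 6 lungs, 0 red cell genes were called with DESeq2, without TMM or with a filter of 1 CPM in 3 libraries. The other settings with all 6 lungs called 1 to 5 of them. No marker was at 0 in all 6 lungs. The part of these cells in the values of Agt and Atp6ap2 was not tested.

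Agt was also compared with 14200 better-read genes for the likeness of its level over the 6 libraries. The genes most like it were Smpd2 (Pearson r = 0.993), Pheta2 (0.982), Nynrin (0.980), Akap12 (0.979) and Ddx19b (0.979). After the mean of each genotype was subtracted they were others, Ehbp1 (0.998), Cgn, Dnaaf5, Pkib and Acad9 (0.996). With 6 libraries that differ in depth and 14 to 33 counts on Agt, these values are a description and carry no test.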

How the data were processed

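The authors aligned paired reads of 150 bases from bulk lung RNA to GRCm38 (mm10) using HISAT2 2.1.0. The deposited values are raw counts: per the file headers, featureCounts 2.0.1 with GENCODE M25 assigned read pairs to genes without regard to strand. Symbols, exons and sequences came from GENCODE M21 on the same build (55141 of 56262 identifiers matched). Read pairs mapping to several places were not counted.

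Counts were compared in R 4.3.3 with edgeR 4.0.16 after filterByExpr (minimum count 10, minimum total 15) and TMM, by glmQLFit and glmQLFTest without covariates, with a call where the Benjamini-Hochberg adjusted p over all 17120 tested genes was under 0.05. The SE was taken as |log2 fold change| / sqrt(F). CPM used TMM-scaled library sizes, and RPKM divided CPM by exon length. Single values were also compared by exact permutation, and ratios used a pseudocount of 0.5. Alternatives used DESeq2 1.42.0, limma 3.58.1, other factors and filters, and left out each lung. On simulated counts, the edgeR step recovered 75% of genes changed by 1 on the log2 scale and 96% of those changed by 2. The 200 changed genes were drawn at random from all tested genes. These shares therefore do not give the recovery of genes with few reads or with smaller changes, such as the members. P-values rest on the spread among 3 mice a group, and edgeR draws part of each gene's spread from the other tested genes.

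The members and lists (wider pathway, kinin system, receptor signalling, V-ATPase and 12 sets of cell markers) were chosen with earlier results of these data known. Named were all members, Ren1, Agtr1b, called pathway genes, the 5 widest wider pathway genes, the widest gene of lists without a call, and the 5 genes most like Agt by each measure. Others are said to be named after their values were seen, or are markers or genes at 0 counts. A gene of the wider pathway list and a ratio planned with it are not reported here, and the list's counts leave it out. The unit of 1 count column was recorded as other because of the comment on the table's first line; its values are whole counts.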

Additional observations from a re-analysis of the deposited data

How the results depend on the processing

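No member was called under any alternative, and the log2 fold changes of the 7 tested members kept their sign in 97 of 98 refits, with adjusted p from 0.175 to 0.493 for Agt and from 0.0636 to 0.307 for Atp6ap2. The exception was Enpep, whose leave-one-out values ran from -0.0716 to 0.0122, above 0 only without WT-3. Agtr1b reached 0.0034 with limma-voom, and its leave-one-out values ran from -0.51 to 0.41. The number of wider pathway genes called, 0 as reported, was 1 with DESeq2 and 1 with the edgeR exact test (Prep in both), 2 without the filter on low counts (Prep and Mcpt4) and 0 to 1 with a lung left out. In the unfiltered fit of 31428 genes edgeR estimated no gene-specific spread (an infinite prior), which also called Zbtb16 despite its overlap.

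Calls over all genes, 300 as reported, were 541 with DESeq2, 630 with the edgeR exact test, 1109 without the filter, and 65 (without WT-1) to 621 (without WT-3) with a lung left out, so the adjusted p-values above depend on single lungs. Receptor signalling genes called, 0 as reported, were 1 with the edgeR exact test (Rgs2), 4 without the filter and 0 to 1 with a lung left out. A replicate block gave 446 calls over all genes and called Rgs2 (-0.56, adjusted p = 0.0426) and Plcb1 (-0.33, adjusted p = 0.0382). The labels do not say that same-numbered lungs were paired. Correlations between same-numbered lungs in their deviations from the genotype means were -0.014, -0.004 and -0.015. With 3 lungs a group, these values cannot decide whether lungs shared a litter or a processing step. Depth limits Agt, Mas1, Agtr1b, Agtr2 and Ren1, at 0 to 33 counts a lung. The causes of these shifts were not tested.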
